A study of Drosophila mojavensis with 95 samples.

Results

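A set of 60 transcripts, out of 14528 measured in the desert fly *Drosophila mojavensis*, had its lowest level after 9 h of desiccation, below the level before desiccation and below the level after 18 h. They were chosen by a rule on the measured levels themselves. The arrays of each of 24 groups were averaged, the 8 groups of each hour were averaged with equal weight, and a transcript's score was the smaller of 0 h minus 9 h and 18 h minus 9 h. The 60 transcripts with the highest score are the members. A dip at 9 h is therefore not a finding about them, and the members' own changes between hours are given as descriptions without a test. Tests on the members are given for differences that the rule averaged over: between regions, populations and diets, and between the time courses of these. The rule used the same values, so a transcript high at 0 or 18 h in only some groups could become a member through these. An excess of calls over the share of all transcripts may therefore stem in part from the choice of members. Changes between hours were tested only for lists chosen by the same rule in one part of the arrays, in the arrays that the choice had not used.

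The flies were wild-type virgin females, and RNA came from the whole organism. They came from 4 populations: San Quintin and Punta Prieta in Baja California, and Organ Pipe National Manument (spelt as in the labels, OPNM from here on) and Punta Onah in the Sonora desert. Flies of each population were raised on laboratory media made from organ pipe or agria cactus and were given 0, 9 or 18 h of desiccation. The 24 groups held 3 to 5 one-colour arrays each, 95 in all, with 31 arrays at 0 h, 31 at 9 h and 33 at 18 h. Nothing in the labels tells if the replicates are separate cultures, so every p-value measures only the spread between these arrays. No undesiccated flies were sampled at 9 or 18 h, so desiccation, lack of food and time of day cannot be told apart.

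*Drosophila mojavensis* breeds in rotting cactus, mainly agria in Baja California and organ pipe in Sonora. A fly kept in dry air loses water through the cuticle, the spiracles and excretion, while it draws on stored carbohydrate and fat; regulation of the Malpighian tubules, cuticular hydrocarbons and metabolic rate is known to govern how long it survives. Many fly transcripts also follow the daily light cycle, and the cultures here were kept under a cycle of light and temperature. Of the 14528 identifiers, 0 occurred in the reference table of 15130 genes of the species. Transcripts are therefore given by FlyBase identifier, and no gene name, role or sequence is given for any of them.

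Values are log2 signals. The table ran from 4.52 to 15.6 and the array medians from 10.17 to 10.40. Over 200 transcripts outside the set that varied most with hour, all 95 arrays lay nearest to the profile of their labelled hour. Over 200 that varied most with population, 85 lay nearest to their labelled population. Both lists were picked with the same arrays and labels, so agreement with a label is in part built in. Among the arrays at 0 h, a pair from Punta Prieta flies raised on organ pipe stood apart. The array labelled replicate 4 correlated at r = 0.888 with the Punta Onah profile and at r = -0.793 with that of Punta Prieta, against its label, and replicate 3 correlated at r = 0.857 with San Quintin and at r = 0.687 with Punta Prieta. The other 8 arrays off their label were exchanges between Punta Prieta and San Quintin at 9 or 18 h. Some were as far off as replicate 3 at 0 h. At 18 h, Punta Prieta organ pipe replicate 4 had r = 0.857 with San Quintin and 0.725 with Punta Prieta, and replicate 3 had 0.783 and 0.558. These 8 were not left out with the pair, so counts without the pair rest on a choice not applied to them. The 4 OPNM agria arrays at 0 h were also checked, since the members were lower in them than in any other group at 0 h. They lay nearest the 0 h profile (r = 0.700 to 0.778). Their median r with the 9 h profile was 0.431 (0.360 to 0.579), against 0.178 (-0.587 to 0.660) over the other 27 arrays at 0 h. The Punta Prieta agria arrays at 0 h had higher values than that median, 0.567 to 0.660, so this was not particular to OPNM agria flies. The counts for populations and regions that use 0 h are given also without the 2 Punta Prieta arrays or without the OPNM agria arrays of all hours; other values include them unless stated.

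Scores of the 60 members ran from 2.20 down to 0.262, with a median of 0.397; the median over all transcripts was -0.11, and 1901 transcripts had a score above 0. The 9 h minus 0 h difference ran from -3.11 to -0.27 on the log2 scale (median -0.57, against 0.01 over all transcripts). The 18 h level lay above the 9 h level by 0.26 to 2.90 (median 0.49, against -0.01 over all transcripts). Only 11 members had a score above 1, and 39 had a score below 0.5, so that a few transcripts dipped deeply and most dipped shallowly. In whole flies, fewer cells of a type and less RNA per cell cannot be told apart.

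The members differed in how far they came back. The 18 h level was above the 0 h level in 33 members and below it in 27, with a median difference of 0.01 over the members and 0.0059 over all transcripts. The share of the fall regained at 18 h ran from 10.8% to 324%, with a median of 103%. In 10 members the 18 h level passed the 0 h level by more than 0.5, and in 14 it stayed more than 0.5 below. In the remaining 36 it lay within 0.5 of the 0 h level, a limit that says little for shallow dips: 25 members had fallen by less than 0.5 in the first place, and the 36 had regained from 49.3% to 202% of their fall.

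**Figure D1:**
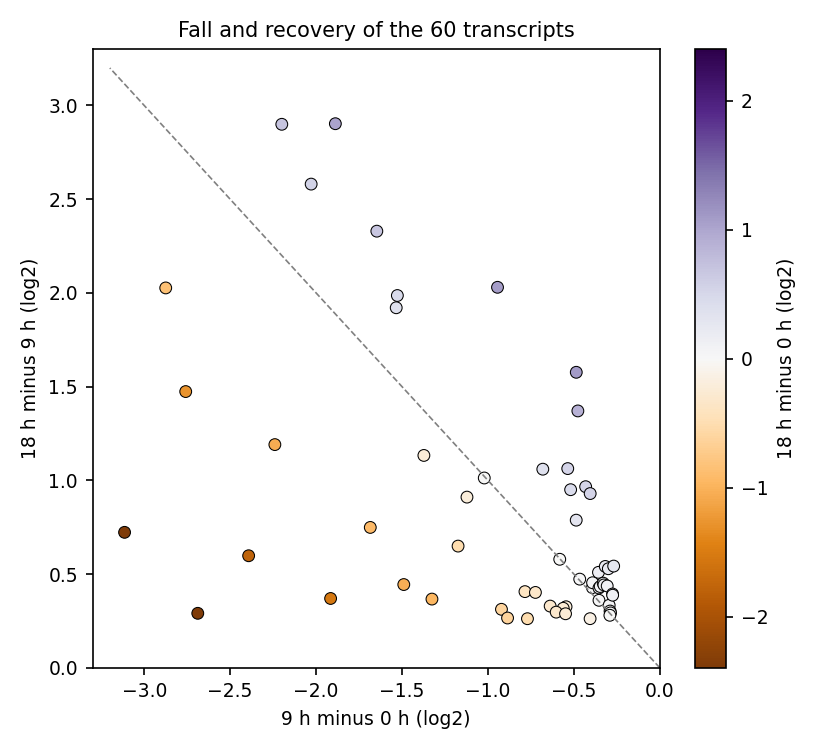
Difference between 9 h and 0 h (x axis, log2) against the difference between 18 h and 9 h (y axis, log2) for each of the 60 transcripts, coloured by 18 h minus 0 h. On the dashed line fall and recovery are equal; the points run from -3.11 to -0.27 on the x axis and from 0.26 to 2.90 on the y axis, and 27 of the 60 lie below the line.

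FBtr0165289 had the highest score, 2.20. Its level ran from 7.57 to 13.05 over the 31 arrays at 0 h (median 11.43), from 7.77 to 10.53 over the 31 arrays at 9 h (median 8.40) and from 9.25 to 12.62 over the 33 arrays at 18 h (median 11.57). The hours overlapped, with some arrays at 0 h as low as those at 9 h. The mean was 10.88 at 0 h, 8.68 at 9 h and 11.58 at 18 h, which puts the 0 h level at 4.59 times and the 18 h level at 7.46 times that at 9 h. FBtr0163651 was next, with means of 13.01 at 0 h, 10.98 at 9 h and 13.56 at 18 h, and 4.08 and 5.98 times the 9 h level at 0 h and 18 h. Both dipped in all 8 combinations of population and diet, each hour taken as the mean of its arrays.

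FBtr0174470 and FBtr0163894 stayed furthest below their 0 h level at 18 h. FBtr0174470 ran from 7.29 to 13.64 at 0 h (median 12.73), from 7.70 to 11.72 at 9 h (median 8.32) and from 8.14 to 12.15 at 18 h (median 9.53). Most arrays at 0 h were above all arrays of the later hours, while the lowest array of the series was also one at 0 h. Its means were 11.95, 8.84 and 9.56 at 0, 9 and 18 h, so that 18 h minus 0 h was -2.39; in FBtr0163894 the means were 11.80, 9.12 and 9.41 and the difference was -2.40. Both dipped in 4 of the 8 combinations, the fewest in the set. FBtr0171044 and FBtr0174266 had the same count, with 18 h minus 0 h differences of 0.0063 and -0.010.

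FBtr0161226 and FBtr0169175 passed their 0 h level by most. FBtr0161226 ran from 8.83 to 10.40 at 0 h (median 9.50), from 8.12 to 9.20 at 9 h (median 8.64) and from 9.63 to 11.24 at 18 h (median 10.59). Every array at 9 h was below every array at 18 h, while the 0 h arrays overlapped both. Its means were 9.54, 8.59 and 10.62, and its dip depth, the mean of the 0 h and 18 h levels minus the 9 h level, lay between 1.17 and 1.84 in all 8 combinations. FBtr0169175 had means of 12.62, 12.14 and 13.71 and a depth of at least 0.70 in each combination, with a mean of 1.03. They were the 2 members whose 9 h arrays all lay below all 18 h arrays over the whole series, where 8 of all transcripts did (0.0551%).

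**Figure D2:**
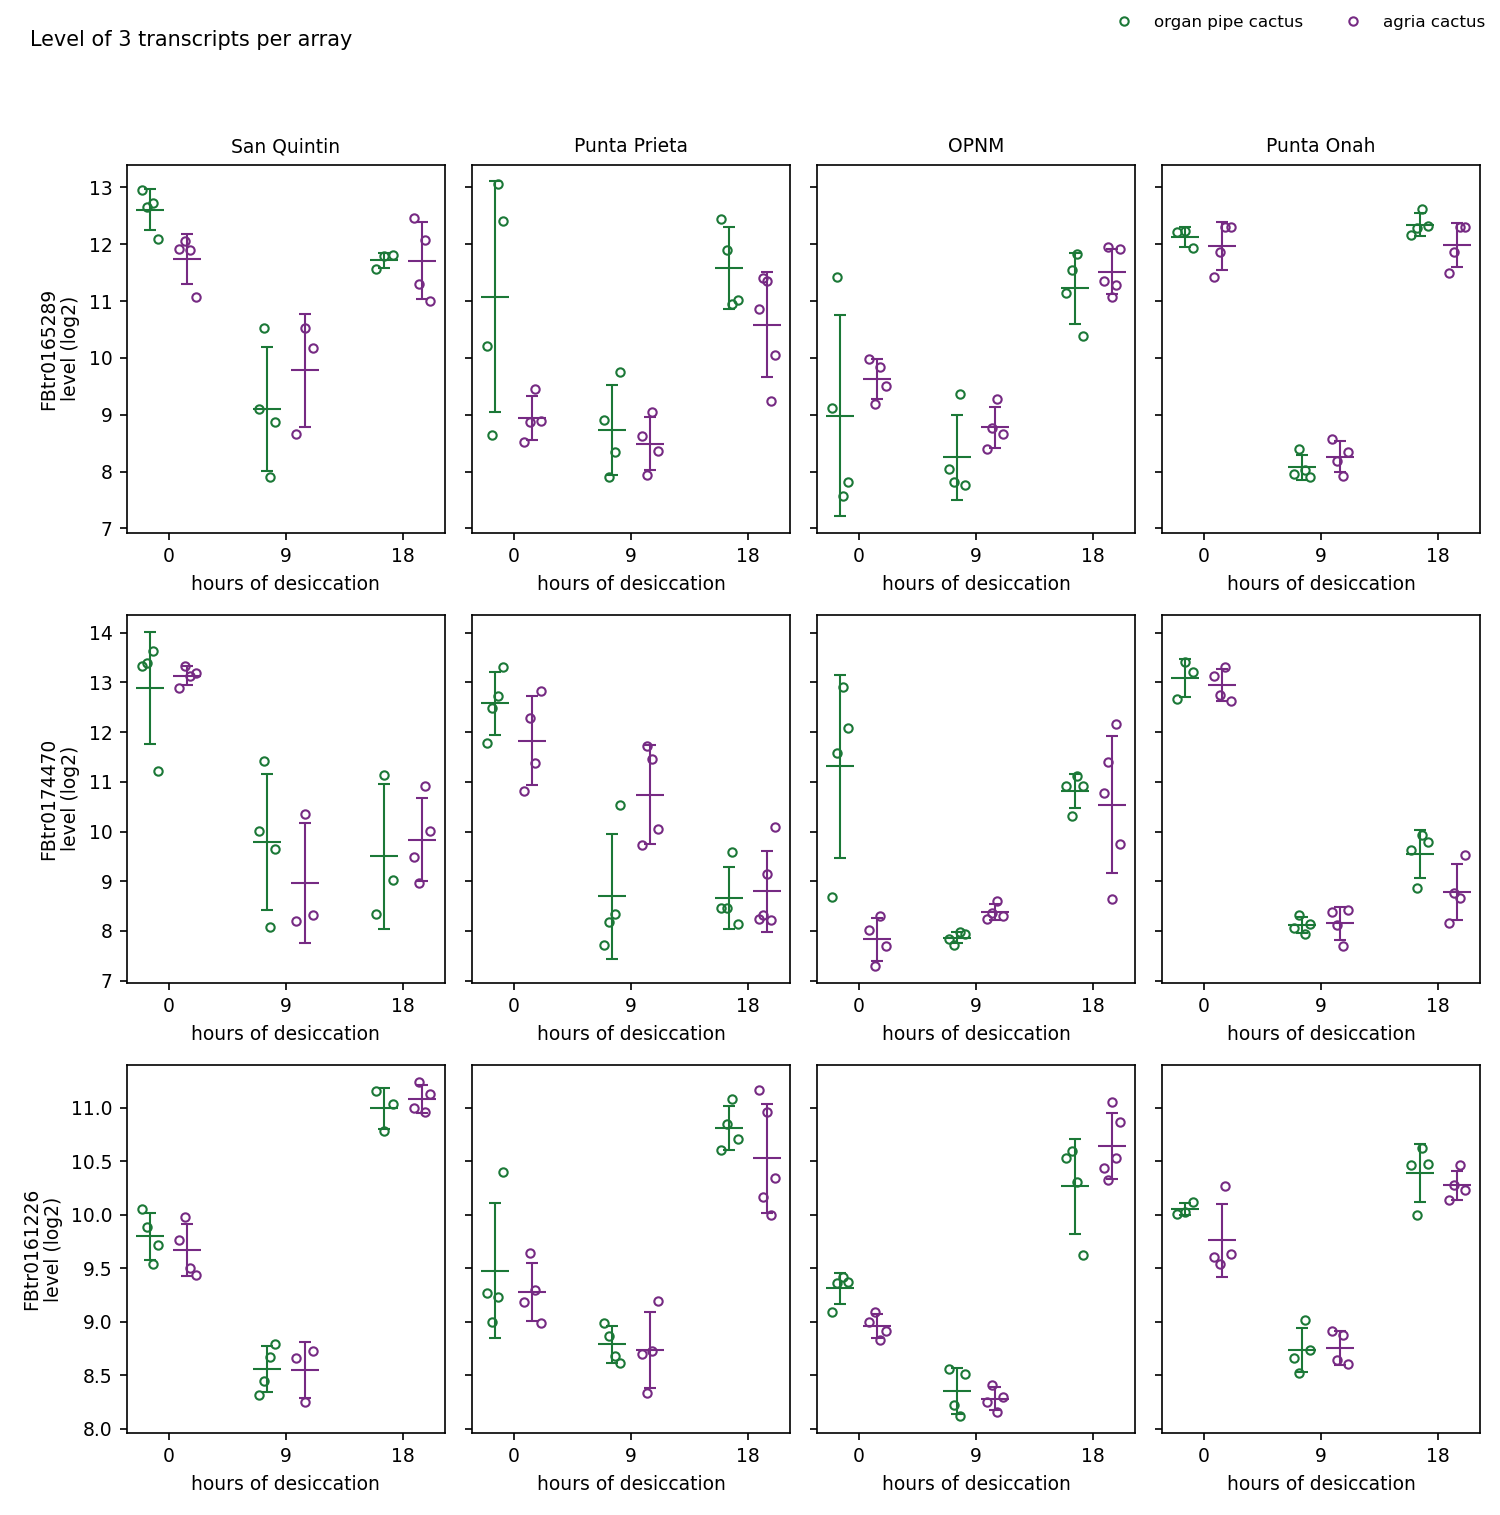
Level (log2) of FBtr0165289, FBtr0174470 and FBtr0161226 in each array (circles) by population and hours of desiccation, organ pipe left and agria right at each hour, with bars for the group mean ± SD. FBtr0165289 is high at 0 h in San Quintin (11.08 to 12.95) and Punta Onah (11.42 to 12.29) and low at 0 h in most arrays of Punta Prieta and OPNM, while FBtr0161226 keeps its dip in all 8 combinations.

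The dip was not equally present everywhere. Both the 0 h and the 18 h mean lay above the 9 h mean in all 8 combinations for 13 members, in 7 for 24 members, in 6 for 15 and in fewer for 8. By combination, San Quintin flies raised on agria had all 60 members in this order, and the other combinations of San Quintin and Punta Onah had 52 to 55. Punta Prieta flies had 56 members in this order on organ pipe and 34 on agria, and OPNM flies had 48 on organ pipe and 39 on agria. Over all transcripts the same order held in 11.4% to 33.7%, depending on the combination, and these counts too are descriptions.

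The combinations differed mainly in the fall before 9 h. The median of the 0 h minus 9 h difference was 1.10 and 0.75 in San Quintin flies on organ pipe and on agria, and 0.93 and 0.70 in Punta Onah flies. It was 0.70 on organ pipe and 0.29 on agria in Punta Prieta flies, and 0.32 and 0.28 in OPNM flies. The median of the 18 h minus 9 h difference varied less, from 0.32 in Punta Prieta agria flies to 0.72 in OPNM agria flies.

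**Figure D3:**
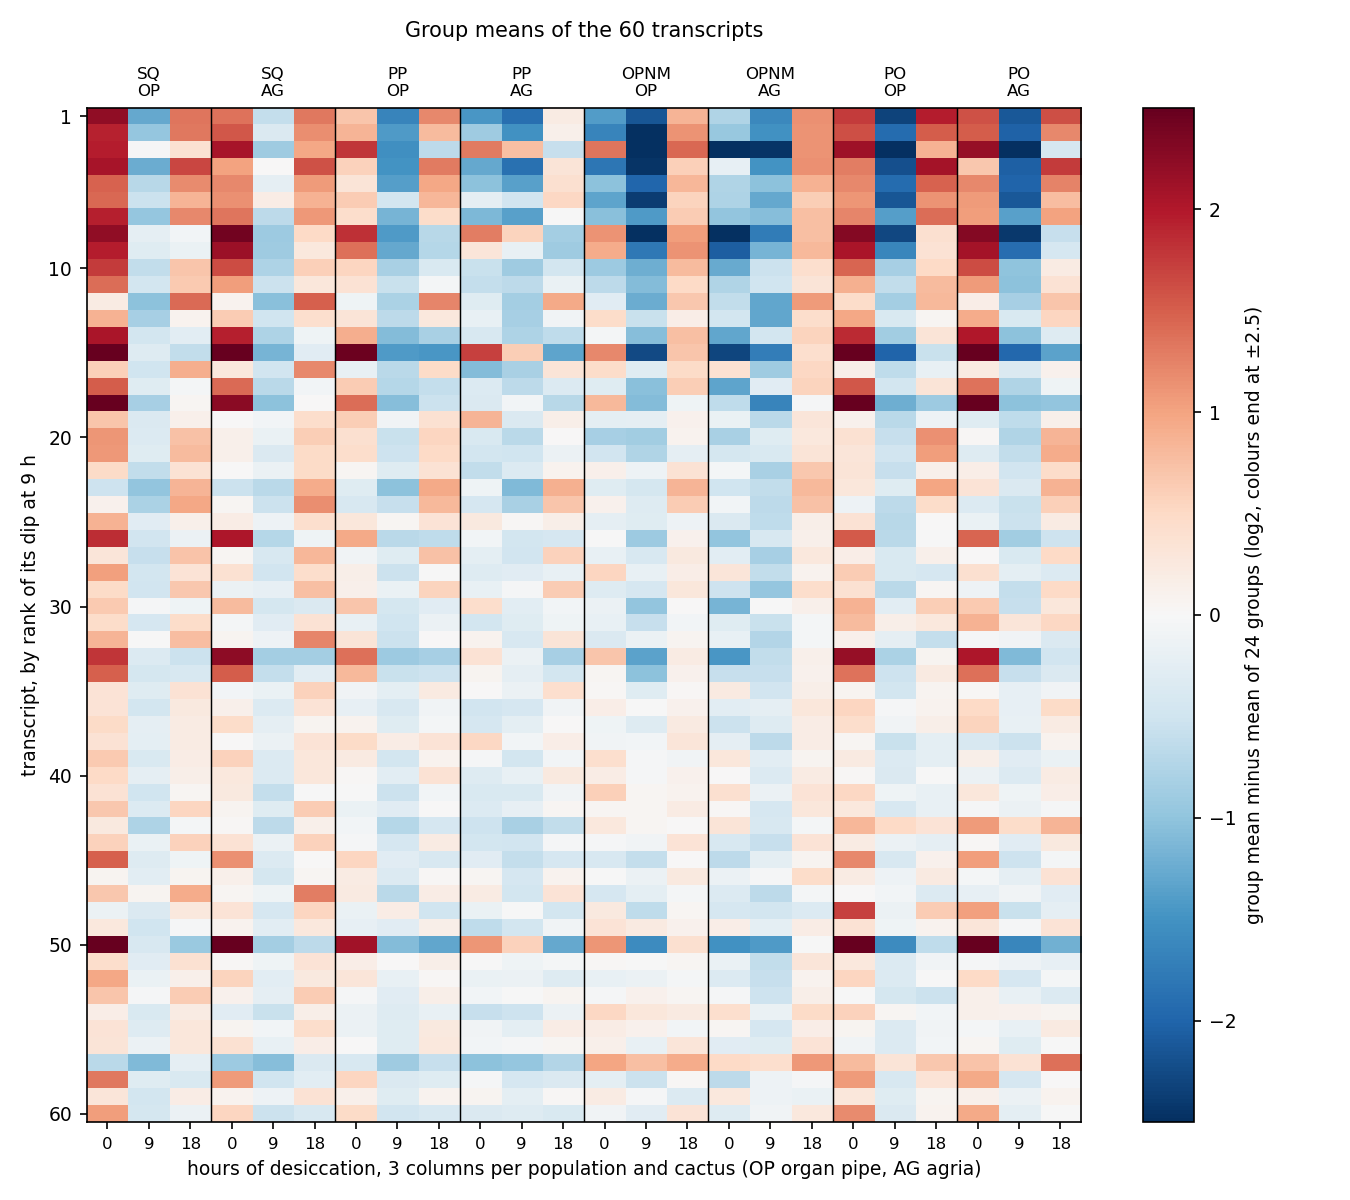
Group means of the 60 transcripts (rows, by rank of score) in the 24 groups (columns, 3 hours for each population and cactus; SQ San Quintin, PP Punta Prieta, PO Punta Onah, OP organ pipe, AG agria), as the difference from the transcript's mean over the groups (log2). The 9 h columns are low for most transcripts, and the 0 h columns are high in San Quintin and Punta Onah. The 0 h columns are closer to the 9 h columns in Punta Prieta agria flies and in OPNM flies of both diets. The order of the rule holds in 34 members in Punta Prieta agria, 39 in OPNM agria and 48 in OPNM organ pipe flies.

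With single arrays in place of means, the dip held without overlap in part of the members in 3 populations. All San Quintin arrays at 9 h lay below all those at 0 h and at 18 h in 20 members (0.317% of all transcripts), and all Punta Onah arrays did in 14 (0.103%). OPNM had 2 such members (0.0138%), Punta Prieta 0 (0%), and the 95 arrays pooled 0 (0%). The rule used these changes, so the counts describe the members only.

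A mean over the 60 members, each taken as its deviation from its own mean over the 24 groups, showed where the populations parted. San Quintin arrays averaged 0.830 ± 0.235 at 0 h, -0.454 ± 0.187 at 9 h and 0.383 ± 0.161 at 18 h (log2, SD over the arrays of both diets, n = 8, 7 and 7). Punta Prieta arrays averaged 0.109 ± 0.514, -0.524 ± 0.197 and -0.0303 ± 0.200 (n = 8, 8 and 9). San Quintin arrays at 0 h (0.530 to 1.13) and 18 h (0.109 to 0.568) lay above all San Quintin arrays at 9 h (-0.720 to -0.192), while in Punta Prieta the hours overlapped.

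In OPNM the same mean was -0.279 ± 0.323 at 0 h, -0.702 ± 0.0594 at 9 h and 0.346 ± 0.181 at 18 h (n = 8, 8 and 9). In Punta Onah it was 0.774 ± 0.156, -0.688 ± 0.0419 and 0.227 ± 0.142 (n = 7, 8 and 8). At 9 h the 2 Sonoran populations overlapped (-0.793 to -0.618 in OPNM, -0.739 to -0.622 in Punta Onah), and at 0 h they did not (-0.597 to 0.314 in OPNM, 0.583 to 0.990 in Punta Onah). OPNM flies raised on agria were lowest at 0 h, at -0.597 to -0.472 over 4 arrays, and those raised on organ pipe ranged from -0.364 to 0.314. In Punta Prieta the mean at 0 h was -0.154 ± 0.192 (n = 6) without the 2 organ pipe arrays that stood apart, which had 0.819 and 0.974.

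**Figure D4:**
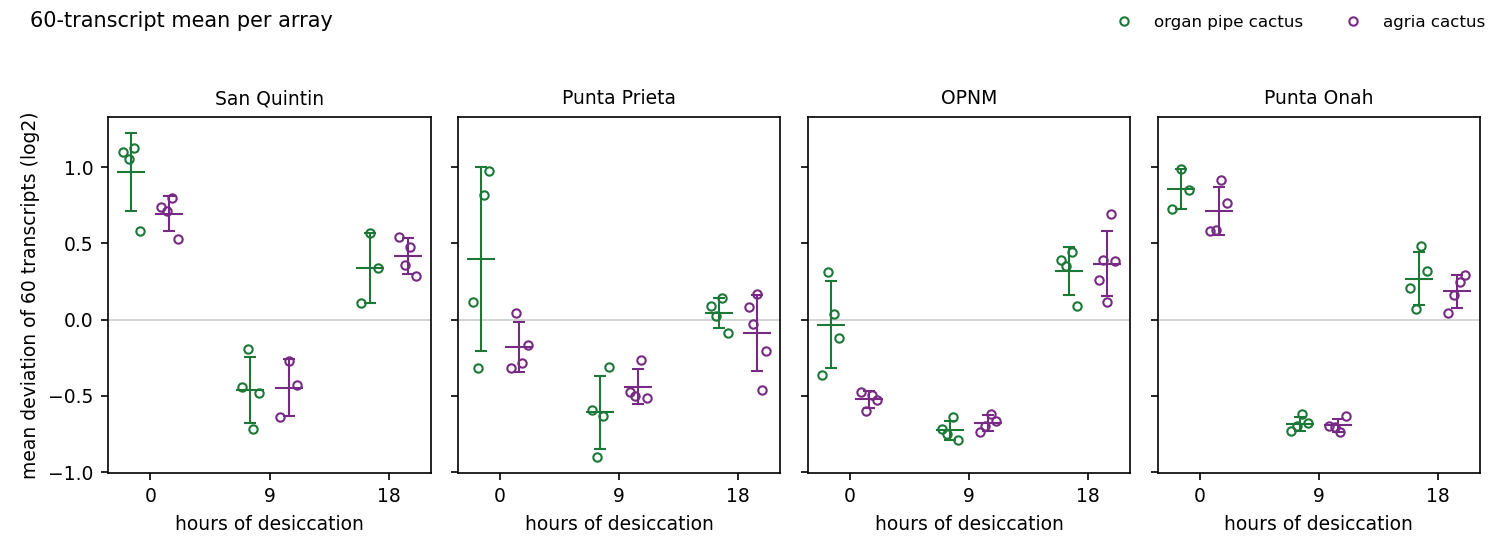
Mean deviation of the 60 transcripts (log2) in each array (circles) by population and hours of desiccation, organ pipe left and agria right at each hour, with bars for the group mean ± SD. The 9 h arrays are low in all 4 populations, while the 0 h arrays average 0.830 in San Quintin, 0.109 in Punta Prieta, -0.279 in OPNM and 0.774 in Punta Onah.

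The spread between populations and diets was widest before desiccation. The SD between the 8 combinations of population and diet had a median over the members of 0.509 at 0 h, 0.243 at 9 h and 0.291 at 18 h; over all transcripts it was 0.131, 0.114 and 0.149. It was largest at 0 h in 48 members (31.4% of all transcripts), at 9 h in 1 and at 18 h in 11. FBtr0167751 was the 1 member with its largest spread at 9 h (0.548). Without the 2 Punta Prieta arrays and the OPNM agria arrays the median at 0 h was 0.482 over the members and 0.143 over all transcripts, and 46 members had their largest spread at 0 h (37.9% of all transcripts).

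Whether the 2 Sonoran populations differed was tested with limma on all transcripts, for the level at 0 h, the level at 9 h and the difference between them. At 0 h 33 members were lower in OPNM than in Punta Onah and 0 were higher, against 4.03% of all transcripts called either way (2.59% lower, 1.43% higher). The median difference over the members was -0.74, against 0.03 over all transcripts. The choice of members used these 0 h values, and its part in the excess was not tested. All 14 members whose 18 h level stayed more than 0.5 below their 0 h level were among the 33 (median difference -2.49), as were 7 of the 10 that passed it by more than 0.5 and 12 of the 36 between these limits.

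FBtr0174470 differed most at 0 h. Its level in OPNM flies raised on agria was 8.03, 7.29, 8.30 and 7.70, and in OPNM flies raised on organ pipe 8.68, 11.57, 12.91 and 12.09. In Punta Onah flies of both diets it lay between 12.63 and 13.41 (median 13.12). All 4 agria arrays of OPNM were thus below every Punta Onah array, and 1 organ pipe array of OPNM reached into the Punta Onah range. The difference was -3.45 ± 0.449 (SE; adjusted p = 1.7e-08 by limma). Without the OPNM agria arrays it was -1.71 and was no longer called (adjusted p = 0.0853).

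FBtr0166499, the next largest, had 9.07 to 14.47 in OPNM (median 11.24), against 14.35 to 14.92 in Punta Onah (median 14.79), a difference of -3.06 ± 0.395 (adjusted p = 1.37e-08). It too was not called without the OPNM agria arrays (-1.17, adjusted p = 0.286). FBtr0165289 had 7.57 to 11.43 in OPNM (median 9.35), against 11.42 to 12.29 in Punta Onah (median 12.22). Its arrays touched at 1 value, and the difference was -2.74 ± 0.397 (adjusted p = 2.8e-07). Without the OPNM agria arrays 20 members were lower at 0 h, against 2.06% of all transcripts called.

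At 9 h the members of the 2 Sonoran populations lay close together. The median difference was 0.04, with a median 95% half-width of 0.34 for a single member, and 2 members were called, both lower in OPNM, against 2.4% of all transcripts (1.4% lower). FBtr0164518 had 7.81 to 8.07 in OPNM, against 8.35 to 9.19 in Punta Onah, with no overlap (difference -0.79 ± 0.126, adjusted p = 7.53e-06 by limma). FBtr0167751 had 8.62 to 9.64, against 9.45 to 10.41 (-0.65 ± 0.188, adjusted p = 0.0387). FBtr0165289 did not pass (7.77 to 9.36 in OPNM, 7.90 to 8.58 in Punta Onah, difference 0.35 ± 0.381, adjusted p = 0.832). With array weights 9 members were called at 9 h, 5 higher and 4 lower in OPNM, against 10.1% of all transcripts.

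The change in this difference between the hours was tested directly. The OPNM minus Punta Onah difference at 0 h, less that at 9 h, was below 0 past the threshold in 24 members and above it in 0, where the whole table had 60 such calls (0.413%; 0.406% below 0). The median was -0.51 over the members and 0.05 over all transcripts. Here too the choice of members used the same 0 h and 9 h values. The 2 largest were FBtr0174470 (-3.44 ± 0.623, adjusted p = 0.000366 by limma) and FBtr0165289 (-3.09 ± 0.551, adjusted p = 0.000281). Without the OPNM agria arrays 2 members were called (0.0551% of all transcripts), with a median of -0.48, and on organ pipe arrays alone 0 were called (0.0206%) with a median of -0.57; FBtr0165289 was then at -3.14 (adjusted p = 0.0517) and FBtr0174470 at -1.44 (adjusted p = 0.984). Leaving out replicate 3 of every group also ended the call of FBtr0165289 (-2.55, adjusted p = 0.0582).

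**Figure D5:**
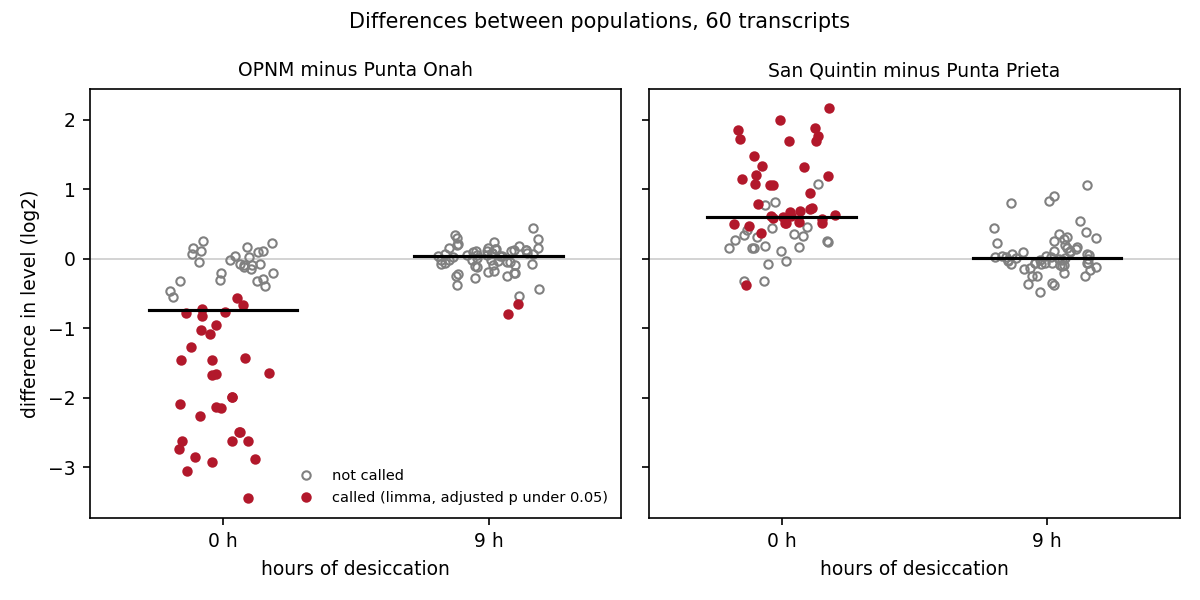
Difference in level (log2) between OPNM and Punta Onah (left) and between San Quintin and Punta Prieta (right) for each of the 60 transcripts at 0 h and 9 h, with called transcripts in red and the median as a black line. The medians are -0.74 and 0.60 at 0 h and 0.04 and 0.01 at 9 h.

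The same tests were run inside Baja California. At 0 h 36 members were higher in San Quintin than in Punta Prieta and 1 was lower, against 18.1% of all transcripts called (10.3% higher, 7.78% lower). The median difference was 0.60, against 0.02 over all transcripts. As in Sonora, the choice of members used these 0 h values. FBtr0165289 had 11.08 to 12.95 in San Quintin (median 12.08), against 8.52 to 13.05 in Punta Prieta (median 9.18), a difference of 2.16 ± 0.381 (adjusted p = 3.99e-05 by limma). The 2 highest Punta Prieta arrays, 13.05 and 12.40, were those that stood apart; the other 6 lay between 8.52 and 10.22, below every San Quintin array.

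Without that pair of arrays the difference of FBtr0165289 was 2.99 (adjusted p = 4.2e-09), and 44 members were called against 27.6% of all transcripts. FBtr0167009 had 11.77 to 12.95 in San Quintin (median 12.45), against 9.13 to 12.84 in Punta Prieta (median 9.93), a difference of 1.99 ± 0.293 (adjusted p = 9.57e-07). FBtr0166287 was the 1 member lower in San Quintin, with 9.90 to 11.11, against 10.55 to 11.28 in Punta Prieta (-0.38 ± 0.127, adjusted p = 0.0315). On organ pipe arrays alone its difference was 0.08 and was not called.

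At 9 h no member was called between San Quintin and Punta Prieta (0 members, 7 at an unadjusted p under 0.05, by limma), where 0.0206% of all transcripts were. The median difference was 0.01, with a median 95% half-width of 0.36. The difference at 0 h less that at 9 h was above 0 past the threshold in 14 members and below it in 0, against 1.23% of all transcripts (0.833% above, 0.392% below), with a median of 0.58 over the members and 0.02 over all. FBtr0172291 had the largest, 2.22 ± 0.478 (adjusted p = 0.0111). Its level at 0 h was 9.01 to 10.95 in San Quintin, against 6.66 to 10.93 in Punta Prieta, and at 9 h 6.65 to 7.29 and 6.28 to 8.63. FBtr0167009 was next, at 1.54 ± 0.423 (adjusted p = 0.0459). The count was 27 without the 2 Punta Prieta arrays that stood apart (6.05% of all transcripts), 0 without replicate 1 (0.0206%) or without replicate 3 of every group (0.33%), 2 without replicate 2 (1.43%), 8 without the 4 arrays of a second array order (0.502%) and 0 on organ pipe arrays alone (1.05%). With array weights it was 43, against 34.1% of all transcripts, and 6 members were called at 9 h, against 9.02%.

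Both pairs of populations shared part of these members. Of the 33 members lower in OPNM and the 36 higher in San Quintin at 0 h, 24 were in both lists, which is 72.7% of the first and 66.7% of the second and 40% of the members. Of the 27 members not lower in OPNM, 12 (44.4%) were higher in San Quintin. Over all transcripts 59 were in both (0.406%), which is 15.6% and 3.95% of the lists. Without the 2 Punta Prieta arrays 27 members were in both lists (0.606% of all transcripts), and without the OPNM agria arrays 20 were (0.275%). The 2 comparisons have no arrays in common but share the fit's estimate of spread and a choice of members that used the 0 h values of both.

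Averaged over the hours, 31 members were lower in OPNM than in Punta Onah and 0 higher, against 15.3% of all transcripts called (6.35% lower, 8.91% higher). The median difference in level was -0.33, against -0.0089 over all transcripts. FBtr0165289 (-1.06 ± 0.221, adjusted p = 0.000192 by limma) and FBtr0163651 (-1.06 ± 0.213, adjusted p = 0.000112) were the largest. Without the OPNM agria arrays 19 members were lower and 2 higher in OPNM, against 13.6% of all transcripts called. In Baja California 35 members were higher in San Quintin than in Punta Prieta and 0 lower, against 16.3% called (11.5% higher, 4.83% lower), with a median of 0.33 over the members and 0.02 over all. FBtr0163647 (1.26 ± 0.240, adjusted p = 0.00016) and FBtr0165289 (1.21 ± 0.224, adjusted p = 9.96e-05) led. Without replicate 2 of every group this count was 20 (8.88% of all transcripts called), and without the 2 Punta Prieta arrays it was 38 (21.7%).

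The depth of the dip, with both ends of the time course weighted alike, did not separate the populations of a region past the threshold. OPNM minus Punta Onah gave 0 members called (25 at an unadjusted p under 0.05, median -0.28, against 0.00688% of all transcripts called by limma) and a median of 0.02 over all transcripts. San Quintin minus Punta Prieta gave 0 members (34 unadjusted, median 0.41) and 0% of all transcripts, where 3847 had an unadjusted p under 0.05 and the smallest adjusted p was 0.0523. Both medians have the sign of the 0 h differences, which are themselves a part of the depth, so this is not a separate result. Without the 2 Punta Prieta arrays that stood apart 20 members were called in the Baja California pair (4.72% of all transcripts), with array weights 38 (45.8%), and without the OPNM agria arrays 4 (1.56%). In the Sonoran pair array weights gave 11 members, all shallower in OPNM (0.413% of all transcripts).

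Between the regions, more members were higher than lower in Baja California. Averaged over diets and hours, 23 members were higher and 10 lower in Baja California than in Sonora, 33 in all, against 34.8% of all transcripts (18.1% higher, 16.7% lower). The median difference was 0.11, against -0.0042 over all transcripts. Differences inside the regions were larger, with medians of -0.33 for OPNM minus Punta Onah and 0.33 for San Quintin minus Punta Prieta. Baja California is represented only by San Quintin and Punta Prieta, and Sonora only by OPNM and Punta Onah. Tests between regions take single arrays as replicates, so they do not measure the spread between populations of a region. FBtr0174650 was lowest in Baja California relative to Sonora: its arrays there ran from 8.18 to 9.55 in San Quintin and from 8.28 to 10.63 in Punta Prieta, against 9.32 to 11.23 in OPNM and 9.71 to 11.17 in Punta Onah. The single highest Baja California array, at 10.63, was the one labelled Punta Prieta organ pipe replicate 4 at 0 h that lay nearest to Punta Onah. Region means were 8.83 and 10.32, a difference of -1.49 ± 0.0676 (adjusted p = 3.9e-31 by limma).

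FBtr0167751 was also lower in Baja California (9.19, against 9.89 in Sonora, -0.70 ± 0.0775, adjusted p = 4.82e-12). FBtr0166500 and FBtr0163650 were higher there, by 0.92 ± 0.172 (adjusted p = 1.06e-05 by limma) and 0.79 ± 0.123 (adjusted p = 1.77e-07). By population FBtr0166500 averaged 11.54 in OPNM, 12.22 in Punta Onah, 12.52 in Punta Prieta and 13.08 in San Quintin. FBtr0163650 averaged 12.45, 13.18, 13.35 and 13.87 in the same order, so that Punta Onah lay closer to Punta Prieta than to OPNM in both. On organ pipe arrays alone 20 members differed between regions, against 19.4% of all transcripts, and FBtr0166500 did not pass (0.38, adjusted p = 0.307).

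Dip depth differed between regions in 5 members, 2 deeper and 3 shallower in Baja California, against 0.53% of all transcripts (0.131% deeper, 0.399% shallower). The median difference was 0.01 over the members and -0.012 over all transcripts. FBtr0166500 had means of 14.12, 11.91 and 12.37 at 0, 9 and 18 h in Baja California and 13.04, 9.50 and 13.10 in Sonora. At 9 h it ran from 9.71 to 13.79 in San Quintin and from 9.69 to 13.75 in Punta Prieta, against 8.74 to 11.07 in OPNM and 8.96 to 10.00 in Punta Onah. Baja California arrays at 9 h were thus spread from the Sonoran level up to near the 0 h level, while Sonoran arrays stayed low. Its dip was 1.33 deep in Baja California, against 3.57 in Sonora (difference -2.23 ± 0.366, adjusted p = 5.09e-05 by limma).

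FBtr0166499 followed the same order, with a depth of 1.33 in Baja California and 2.91 in Sonora (-1.58 ± 0.334, adjusted p = 0.00329). In the other direction, FBtr0171043 had a depth of 0.77 in Baja California and 0.057 in Sonora (0.71 ± 0.158, adjusted p = 0.00644), and FBtr0171045 of 0.72 and 0.12 (0.60 ± 0.151, adjusted p = 0.0337). FBtr0171043 and FBtr0171045 dipped in 5 of the 8 combinations each. Their identifier numbers lie within 5 of each other, as do those of FBtr0166499 and FBtr0166500. The transcripts of each pair may therefore not be independent measurements. Leaving out replicate 1, 2, 3 or 4 of every group gave 2, 2, 3 and 3 calls (0.317%, 0.31%, 0.344% and 0.337% of all transcripts). Agria alone gave 1 (0.372%), organ pipe alone 1 (0.0619%) and array weights 15 (3.63%); FBtr0171043 was not called without replicate 1 (adjusted p = 0.121), 2 (0.412) or 3 (0.091).

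The 18 h minus 0 h change differed between regions in 32 members, 8 higher and 24 lower in Baja California. Over all transcripts 42.3% were called (19.4% higher, 22.9% lower). The 32 were 53.3% of the members, not far above that share. The median difference was -0.18 over the members and 0.0035 over all transcripts. The Sonoran mean joins populations that differed: in 23 of the 24 members lower in Baja California, OPNM had the highest change of the 4 populations, and the medians over these 24 were -1.20 in San Quintin, -0.56 in Punta Prieta, 0.86 in OPNM and -1.07 in Punta Onah. Of the 14 members that stayed more than 0.5 below their 0 h level, 13 were among those lower in Baja California. In all 14 Punta Onah fell at least as far as one of the Baja California populations, and in 13 OPNM had a higher level at 18 h than at 0 h. Over the 14, the median level in OPNM agria flies went from 8.71 at 0 h to 10.56 at 18 h. In OPNM organ pipe flies it went from 10.670 to 10.665. These counts and medians were not tested. FBtr0174470 changed by -3.41 in Baja California, against -1.38 in Sonora (difference -2.03 ± 0.435, adjusted p = 0.000887 by limma). By population it changed by -3.34 in San Quintin, -3.47 in Punta Prieta, 1.11 in OPNM and -3.86 in Punta Onah. The rise in OPNM was in agria flies, whose mean went from 7.83 to 10.54. In OPNM organ pipe flies the mean went from 11.31 to 10.81. FBtr0166499 changed by -2.21 and by -0.36 (difference -1.86 ± 0.383, adjusted p = 0.000672 by limma). By population it changed by -2.10 in San Quintin, -2.32 in Punta Prieta, 1.67 in OPNM and -2.38 in Punta Onah. Its OPNM means went from 9.76 to 13.17 on agria and from 13.54 to 13.47 on organ pipe. FBtr0168039 went the other way, with 0.83 in Baja California and -0.074 in Sonora (difference 0.91 ± 0.174, adjusted p = 0.000305), as did FBtr0174266 (0.45 ± 0.166, adjusted p = 0.0267).

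Part of this regional difference rested on a few groups. Without the OPNM agria arrays FBtr0166499 was no longer called (-0.99, adjusted p = 0.0611), while 27 members were (34.8% of all transcripts). The count was 16 without replicate 1 of every group (14% of all transcripts), 15 on agria arrays alone (9.31%) and 3 on organ pipe arrays alone (3.96%). It was 16 (4.36%) after removal of the main axis along which arrays of the same group differed from each other, here called the shared axis. The shared axis held 41.8% of the within-group variance. Within groups the 60-member mean correlated with it at r = 0.240 over 95 arrays that share groups and normalization. The mean score on this axis was 13.7 at 0 h, -4.38 at 9 h and -8.76 at 18 h, so its removal may also take out change between hours. The part of the shared axis in the result was not tested.

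The members that stayed low at 18 h did not dip in every combination. Their median depth was -0.064 in Punta Prieta agria flies, where 6 of 14 had a depth above 0, and 0.20 in OPNM agria flies, where 9 of 14 did. In the other 6 combinations all 14 had a depth above 0, with medians of 1.16 to 1.94. A depth above 0 does not need an 18 h level above that at 9 h. In San Quintin organ pipe flies the median levels of the 14 were 12.27, 9.77 and 9.71 at 0, 9 and 18 h. The 10 members that passed their 0 h level by more than 0.5 had a depth above 0 in all 8 combinations, with medians of 1.04 to 1.58. These values describe the members, since the rule used the same changes.

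Averaged over populations, the diet on which the flies were raised made no called difference in any of 3 measures when all arrays counted alike. In level 0 members were called (13 at an unadjusted p under 0.05, by limma), against 0.0138% of all transcripts, and the median organ pipe minus agria difference was 0.10, with 56 members above 0, against -0.0045 over all transcripts. In dip depth 0 were called (14 unadjusted), against 0.00688% of all transcripts, with a median of 0.10. In the 18 h minus 0 h change 0 were called (29 unadjusted) and 0% of all transcripts (1174 unadjusted, smallest adjusted p 0.282), with a median of -0.33, against -0.013 over all. The median 95% half-widths for a single member were 0.14, 0.30 and 0.35, so that smaller differences were not resolved with this number of arrays. When limma weighted the arrays by their fit, 6 members were called in level, all higher on organ pipe (0.95% of all transcripts), 13 in depth, all deeper on organ pipe (4.2%), and 11 in the 18 h minus 0 h change, all lower on organ pipe (1.72%).

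Since the rule used all arrays, whether such a dip holds in arrays it did not use was tested by choosing 60 transcripts by the same rule in one part of the arrays and testing them in the rest. A transcript passed when limma, fitted on the rest alone, called its 9 h level lower than at 0 h and its 18 h level higher than at 9 h. Of 60 chosen in the 49 agria arrays, 36 passed in the 46 organ pipe arrays, where 0.716% of all transcripts did. Of 60 chosen in organ pipe arrays, 33 passed in agria arrays (0.475% of all transcripts).

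Across regions, 23 of 60 chosen in the 48 Sonoran arrays passed in the 47 Baja California arrays (0.695% of all transcripts), and 37 of 60 chosen in Baja California passed in Sonora (0.716%). The chosen lists shared 45 and 50 transcripts with the members for agria and organ pipe, and 41 and 46 for Sonora and Baja California. The 2 diet lists had 38 transcripts in common and the 2 region lists 29. In the arrays not used for the choice, the median score was 0.375 in organ pipe, 0.285 in agria, 0.237 in Baja California and 0.293 in Sonora. All arrays were normalized together by the authors, so the arrays used for choice and for test share that step. Without the 2 Punta Prieta arrays the 4 counts were 39 in organ pipe, 33 in agria, 20 in Baja California and 35 in Sonora, and without the OPNM agria arrays 35, 23, 21 and 33.

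Of the regional differences, level was called in 25 members without the 2 Punta Prieta arrays (32.8% of all transcripts) and in 27 without the OPNM agria arrays (28.5%). Dip depth was called in 5 (0.537%) and 7 (0.372%), and the 18 h minus 0 h change in 33 without the 2 Punta Prieta arrays (46.8%).

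The members were not dim as a group. Their mean log2 signal ran from 7.55 (FBtr0162920) to 13.21 (FBtr0163650), with a median of 10.11, against 10.30 over all transcripts. With all transcripts ranked by mean signal into 5 equal classes, 6, 13, 29, 5 and 7 members fell into the classes from dimmest to brightest, so that the middle class held the most. Signals of different transcripts come from different probes and do not compare amounts of RNA.

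The members varied more between arrays of one group than most transcripts did. The SD within groups had a median of 0.351, against 0.201 over all transcripts, and without both sets of arrays named above it had 0.328, against 0.197. It was largest in FBtr0174470 (0.884) and FBtr0163894 (0.873) and smallest in FBtr0168234 (0.172) and FBtr0168242 (0.173).

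Part of the set moved together from array to array. Over deviations from the group means in 95 arrays, which share groups, normalization and the shared axis, 1770 pairs of members had a median r of 0.157 (-0.661 to 0.947), against 0.006 over all pairs of transcripts. The 55 pairs among the 11 members with a score above 1 had a median of 0.626 (0.175 to 0.947). Without both sets of arrays these medians were 0.136 and 0.514. In all, 13 members had identifier numbers within 5 of each other and formed 5 runs of 2 or 3: among them were FBtr0163647, FBtr0163650 and FBtr0163651, which rank 4, 6 and 2. The 11 pairs within runs had a median r of 0.759. Whether transcripts of a run come from one gene, from neighbours or share probes is not known here, so members of a run may not be independent measurements.

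The limit of 60 fell on a smooth slope of scores. The last member, FBtr0168171, had a score of 0.262 with means of 9.01, 8.24 and 8.50 at 0, 9 and 18 h. The first transcript outside, FBtr0162797, had a score of 0.261 with means of 11.65, 11.38 and 11.72.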

How the data were processed

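Values of 14528 transcripts on 95 NimbleGen arrays were taken from the authors' deposited log2 table. Per the submitters' processing notes the authors made these log2 values with RMA, which corrects background, normalizes between arrays and summarises probes; no version is given, and the log2 scale is inferred from the values. The table carries no background signal, so detection was not assessed. Per the labels' protocols, total RNA was extracted with a column kit and a DNase step. Of the columns, 0 belonged to no sample, and no 2 arrays were identical (smallest maximum difference 1.09).

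The values were fitted in R 4.3.3 with limma 3.58.1 with a mean for each of the 24 groups, which left 71 residual degrees of freedom. Contrasts weighted groups equally, p-values were two-sided and were adjusted over all 14528 transcripts by the Benjamini-Hochberg method, and calls were made below 0.05. In all, 16 contrasts were tested. Of these the 6 comparisons of populations at 0 h, at 9 h and between these hours were added after seeing the data. The fit was tested on simulated data. The members, the contrasts and the rule for named transcripts were chosen with earlier results of these data known. Named are those at the ends of the ranking, of level, of 18 h minus 0 h and of spread, and at most 2 higher and 2 lower per contrast.

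The labels number replicates 1 to 5. Deviations from group means correlated at a median r of -0.010 between same-numbered arrays of different groups (1039 pairs, 34.2% over 0.1) and at 0.0016 between others (3283 pairs, 36.9%), so the numbers were not taken to pair arrays. Alternatives were median centring, quantile normalization, removal of the shared axis, array weights, leaving out the dimmest 20% of transcripts, each replicate number, the arrays that stood apart or the 4 arrays of a second array order, a replicate block, and each diet alone.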

Additional observations from a re-analysis of the deposited data

Results flagged for a closer look

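Within-group values were screened for arrays far from the others of their group, a screen that chance alone trips in about 1 in 20 groups. In Punta Prieta agria flies at 9 h, the array of replicate 3 had a 60-member mean of -0.267, while the other 3 lay between -0.514 and -0.474. In San Quintin organ pipe flies at 0 h, replicate 4 had 0.583, while the others lay between 1.05 and 1.13. FBtr0165289 was 11.08 in replicate 4 of San Quintin agria flies at 0 h, while the others lay between 11.89 and 12.06.

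Some time courses differed between groups by a test of the difference itself, in members that the rule had chosen with the same values. The OPNM minus Punta Onah difference at 0 h less that at 9 h was called in 24 members (0.413% of all transcripts), led by FBtr0174470 (-3.44) and FBtr0165289 (-3.09). The San Quintin minus Punta Prieta difference at 0 h less that at 9 h was called in 14 members (1.23%), led by FBtr0172291 (2.22) and FBtr0167009 (1.54). Dip depth differed between Baja California and Sonora in 5 members (0.53%), among them FBtr0171043 (0.71), FBtr0171045 (0.60), FBtr0166500 (-2.23) and FBtr0166499 (-1.58). FBtr0171043 and FBtr0171045 have neighbouring identifier numbers, as do FBtr0166500 and FBtr0166499, and may not be independent measurements. The 18 h minus 0 h change differed between the regions in 32 members (53.3%), not far above the 42.3% of all transcripts called. The count was 16 without replicate 1 of every group and 3 on organ pipe arrays alone. Among the 32 were FBtr0168039 (0.91), FBtr0174266 (0.45), FBtr0174470 (-2.03) and FBtr0166499 (-1.86).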

How the results depend on the processing

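The members themselves depended little on the processing: the rule still chose 58 of the 60 after median centring, 54 after quantile normalization, 52 to 59 when a replicate number was left out, 45 from agria arrays alone and 50 from organ pipe arrays alone. With a replicate block the counts were 24 for OPNM minus Punta Onah at 0 h less 9 h, 11 for San Quintin minus Punta Prieta at 0 h less 9 h, 5 for regional dip depth and 32 for the regional 18 h change, and the block moved no count by over 1.5 times.

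Array weights raised counts most: 6, 13 and 11 members were called for diet in level, depth and 18 h change, 11 and 38 for depth in the Sonoran and Baja California pairs, 9 and 6 for level at 9 h in those pairs, 43 for San Quintin minus Punta Prieta at 0 h less 9 h, and 15 for regional depth. For OPNM minus Punta Onah, depth gave 2 after median centring, quantile normalization or removal of the shared axis, 1 without the dimmest 20%, 4 without the 2 Punta Prieta arrays that stood apart and 2 on agria alone. Level at 9 h gave 4 with the shared axis removed, 1 without the second array order and 1 on organ pipe alone. Its level over the hours gave 18 on agria alone and 20 on organ pipe alone, its level at 0 h 20 without the OPNM agria arrays and 16 on organ pipe alone, and its 0 h less 9 h difference 2 and 0.

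For San Quintin minus Punta Prieta, depth gave 4 without the OPNM agria arrays, 20 without the 2 Punta Prieta arrays and 1 on agria alone. Its level gave 9 on organ pipe alone, its level at 0 h 15, and its 0 h less 9 h difference 27 without the 2 Punta Prieta arrays, 8 without the second array order and 0 on organ pipe alone. Between regions, level gave 20 on organ pipe alone, depth 1 on either diet alone, and the 18 h change 16 with the shared axis removed, 15 on agria and 3 on organ pipe. FBtr0166287 changed sign between San Quintin and Punta Prieta at 0 h on organ pipe alone (0.083, against -0.38 on both diets). A fit on 1 diet has fewer arrays; for the other shifts the cause was not tested.

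With each replicate number left out in turn, counts ran from 22 to 32 for regional level, 2 to 5 for regional depth, 16 to 32 for the regional 18 h change, 23 to 30 for OPNM minus Punta Onah, 0 to 3 for its depth, 30 to 33 at 0 h, 1 to 2 at 9 h and 16 to 24 for 0 h less 9 h. For San Quintin minus Punta Prieta they ran from 20 to 35 in level, 26 to 37 at 0 h and 0 to 14 for 0 h less 9 h. Of the single transcripts named, 64 values under an alternative kept their direction without passing the threshold.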
